A study of Mus musculus with 4 samples.

Results

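The 9 genes described here encode the enzymes that make serine from a glycolytic intermediate and pass its carbon to folate: Phgdh, Psat1, Psph, Shmt1, Shmt2, Mthfd1, Mthfd1l, Mthfd2 and Mthfd2l. They were chosen by name, as the rows whose gene identifier carries one of these 9 GENCODE symbols, and make up 9 of the 50600 annotated genes in the count tables. All 9 were found. They drew between 0.278% and 0.287% of the gene-assigned fragments of a library.

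RNA of primary T cells from mice of the inbred strain C57BL/6NJ was sequenced in 4 libraries, which form 1 group and are numbered as biological replicates 1 to 4. The labels give no treatment, time, age or sex, and the alignment names inside the tables carry the words Th0 (helper T cells cultured without polarizing cytokines), activated and 24 h for all 4. By its title the assay is total RNA-seq, but the name of the library protocol says poly(A)+ RNA, and a second protocol covers CD4+ T-cell differentiation. There was no second group, so the questions were how high each enzyme gene stood, in which order, which isozyme prevailed, and how far the replicates differed. All 4 share a single donor entry, and no label says that they came from separate animals.

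The libraries held 47558517 to 273136467 fragments, replicate 2 being the deepest. Levels are given in TPM, the fragment count per base of exon scaled to the same fixed total in each library. All 6 T-cell markers (Cd3d, Cd3e, Cd3g, Trac, Cd4 and Cd5) reached 10 TPM in every library, with sums of 3864 to 4213 TPM. Of the 2 CD8 markers, Cd8b1 was above 10 TPM and Cd8a stood at 0.804 to 0.862 TPM. Summed markers of other cell types were low: 3.33 to 7.01 TPM for B cells, 5.57 to 8.37 for myeloid cells, where Cd68 made up most of the sum and Csf1r had no fragment, 0.354 to 1.18 for natural killer cells, 0 to 0.502 for red cells and platelets, and 10.9 to 15.1 for stroma and epithelium, mostly Pecam1. The replicates split by sex-linked transcripts: Xist stood at 163 and 150 TPM in replicates 1 and 2 but at 0.715 and 0.696 TPM in replicates 3 and 4, and Y-linked Ddx3y at 0.0434 and 0.0219 TPM in replicates 1 and 2 but at 38.8 and 39.3 TPM in replicates 3 and 4.

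Serine is built from 3-phosphoglycerate in a short chain: phosphoglycerate dehydrogenase (Phgdh) oxidizes it, phosphoserine aminotransferase (Psat1) adds an amino group from glutamate, and phosphoserine phosphatase (Psph) removes the phosphate. Serine hydroxymethyltransferases, Shmt1 in the cytosol and Shmt2 in mitochondria, then split serine into glycine and a carbon unit carried by tetrahydrofolate. Enzymes of the Mthfd family interconvert the oxidation states of that unit, which cells spend on purines, thymidylate, formate and methionine, and dividing T cells are known to draw on the pathway.

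Each compartment has its own enzymes, encoded by separate genes. The following pairs of promoters belong to the isozymes whose transcript levels differed most, and are shown so that both members of a pair can be read side by side. Each run is the 250 bases before the RefSeq transcription start (GRCm38.p6, the mm10 assembly), 5′ to 3′ on the gene's own strand, and capitals mark CCAAT boxes on either strand (CCAAT or ATTGG).
Shmt2, mitochondrial, chr10:127522445-127522694, minus strand: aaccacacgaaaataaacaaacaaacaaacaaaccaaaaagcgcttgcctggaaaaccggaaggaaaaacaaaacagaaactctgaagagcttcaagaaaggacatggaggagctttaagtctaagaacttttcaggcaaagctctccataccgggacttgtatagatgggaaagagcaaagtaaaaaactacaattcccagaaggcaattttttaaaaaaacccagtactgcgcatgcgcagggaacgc
Shmt1, cytosolic, chr11:60811266-60811515, minus strand: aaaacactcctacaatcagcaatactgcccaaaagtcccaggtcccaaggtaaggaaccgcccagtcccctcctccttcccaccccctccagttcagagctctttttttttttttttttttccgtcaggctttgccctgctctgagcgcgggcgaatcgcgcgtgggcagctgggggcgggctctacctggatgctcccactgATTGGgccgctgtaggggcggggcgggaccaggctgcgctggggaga
Mthfd2, mitochondrial, chr6:83317605-83317854, minus strand: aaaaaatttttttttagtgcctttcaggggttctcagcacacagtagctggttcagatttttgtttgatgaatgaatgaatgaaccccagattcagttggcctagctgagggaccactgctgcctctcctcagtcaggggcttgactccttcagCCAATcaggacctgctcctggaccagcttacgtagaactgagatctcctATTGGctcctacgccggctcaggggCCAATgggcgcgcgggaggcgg
Mthfd2l, mitochondrial, chr5:90930946-90931195, plus strand: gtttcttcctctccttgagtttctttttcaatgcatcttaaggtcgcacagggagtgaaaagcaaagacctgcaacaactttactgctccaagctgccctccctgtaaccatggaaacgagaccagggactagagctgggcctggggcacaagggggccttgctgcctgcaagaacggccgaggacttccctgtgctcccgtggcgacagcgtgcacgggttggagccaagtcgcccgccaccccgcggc

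CCAAT boxes differed within these pairs. Mthfd2, the far more abundant of its pair, held 3 boxes between 96 and 22 bases before the start and Mthfd2l none, whereas abundant Shmt2 held none and Shmt1 held 1, at 47 bases before the start. In the third isozyme pair Mthfd1 held 1 and the lower Mthfd1l none. Across all members, 6 of 10 listed promoters, from 6 of 9 genes, had a CCAAT box, against 33.8% of the 32851 RefSeq promoters cut to the same length. Phgdh, Psat1 and Psph, the whole serine chain, held 2 each (Psat1 in 1 of its 2 listed promoters), which 10.1% of all promoters reach. A GC box (GGGCGG) was found in 5 of 10 listed promoters, from 5 of 9 genes, against 32.7% of all promoters. The GC box of Psat1 lay in its promoter without a CCAAT box. TATAAA was found in 1 listed promoter, that of Phgdh, against 12.4%. The E-box CACGTG (6.02% of all promoters), the full cyclic AMP element TGACGTCA (1.55%) and the composite element TGATGNAA (3.45%) matched no member. The shorter TGACG was present in Shmt1 and Mthfd1l, against 17.8% of all promoters. All motifs were searched on both strands, TGACG also lies within TGACGTCA, and a match describes letters only. The counted genes Mthfd2, Psat1 and Shmt1 extend upstream of their listed promoters, to chr6:83325908, chr19:15947337 and chr11:60811718. Those of Phgdh, Psph and Mthfd2l begin inside their listed promoters, at chr3:98339990, chr5:129787449 and chr5:90931117. The levels of all these genes may therefore include transcripts from other starts.

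Whether fragments can be credited to the right isozyme depends on the sequence they share. The longest unbroken identical stretch between the coding sequences of each pair, printed whole in capitals, was as follows.
Shmt2 from coding base 901 and Shmt1 from coding base 814, 19 bases: CCCAAGACTGGCAAAGAGA
Mthfd2 from coding base 940 and Mthfd2l from coding base 955, 20 bases: CCCATGACCGTGGCCATGCT
Mthfd1l from coding base 2839 and Mthfd1 from coding base 2713, 20 bases: GGAACGATGAGCACAATGCC

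No stretch exceeded 20 bases. Phgdh, however, had 18 annotated look-alikes (at least 90% identity over at least 200 bases), 13 of them in the count tables and 8 at 95% identity or more. The closest, Gm7901, matched 98.7% over 1597 bases and drew 264, 1239, 232 and 280 fragments in replicates 1 to 4, a mean of 10.5 TPM. The 13 look-alikes in the count tables together drew 1.77%, 1.499%, 1.59% and 1.87% as many fragments as Phgdh. The others were not counted. Fragments that fit Phgdh and a copy equally well were counted for neither, so the Phgdh level is uncertain to an unknown extent. Mthfd2l, Psat1 and Shmt2 had 1 look-alike each, with 0 to 9 fragments a library, and the other 5 genes had none.

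Transcripts of 8 of the 9 enzymes were abundant in every library, and Mthfd2l was near 1 TPM. At 10 TPM or more in every library stood 8 of 9 members, against 16% of all annotated genes and 63.8% of the 12712 genes with enough fragments to test. At 100 TPM or more stood 7 of 9, against 3.98% of all annotated genes and 15.8% of tested genes. At 1 TPM or more stood 8 of 9, against 22.7% and 88.9%. The median of the members' mean levels was 271 TPM, against 23.0 TPM over the tested genes. The members were named for their pathway and earlier results of these data were known, so these counts are a description. As bulk RNA, a level does not tell apart how many cells carried a transcript and how much each carried.

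**Figure D1:**
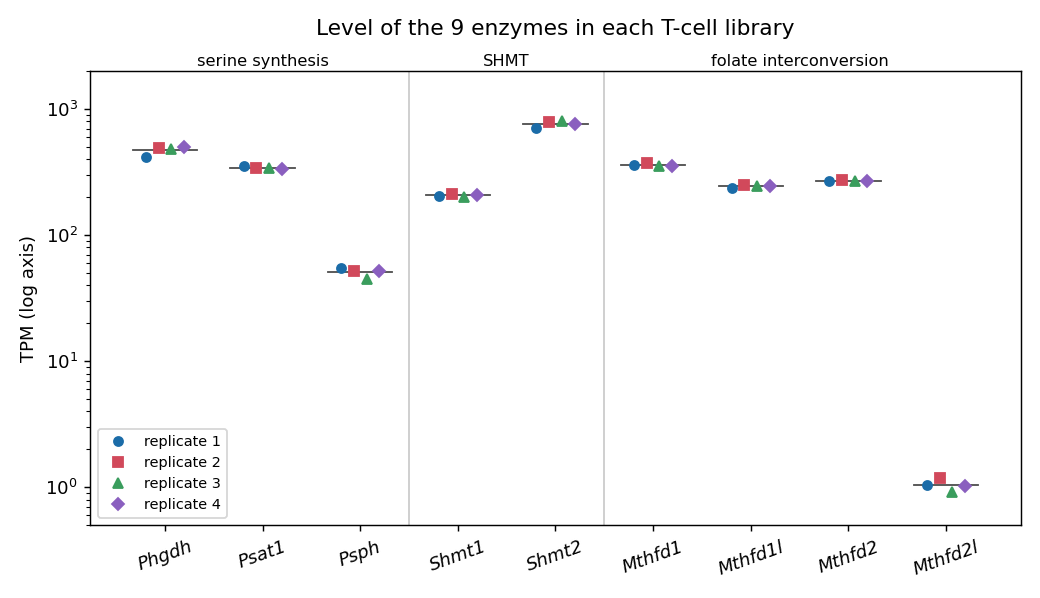
Level of each enzyme gene in TPM on a log axis, grouped by role, with 1 symbol per replicate and a line at the mean of 4. Shmt2 lies highest at 715 to 811 TPM, Psph at 44.6 to 54.8 TPM and Mthfd2l at 0.927 to 1.18 TPM, and the symbols of 1 gene lie close together.

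The first 2 enzymes of serine synthesis were highly transcribed and the last was lower than the first by 7.66 to 10.9 times. Phgdh (ENSMUSG00000053398.11, mm10 chr3:98313170-98339990, minus strand), which commits 3-phosphoglycerate to serine, stood at 420, 493, 487 and 501 TPM in replicates 1 to 4. Replicate 1 was lower than the other 3, which lay close together. The mean was 475 ± 37.3 TPM (SD, n = 4), rank 307 of all annotated genes by mean TPM. Psat1 (ENSMUSG00000024640.9, chr19:15904678-15947337, minus strand), the aminotransferase of the chain, stood at 352, 340, 339 and 333 TPM. Here replicate 1 was the highest, by a small margin, and the mean was 341 ± 7.79 TPM (rank 503). Psph (ENSMUSG00000029446.14, chr5:129765558-129787449, minus strand), whose product releases free serine, stood at 54.8, 51.7, 44.6 and 52.1 TPM. Replicate 3 was the lowest, and the mean of 50.8 ± 4.37 TPM placed it at rank 3969.

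Psat1 exceeded Psph by 6.39 to 7.61 times in TPM. The difference of Phgdh minus Psat1 on the log2(TPM + 1) scale was 0.47 ± 0.15, positive in 4 of 4 libraries and smallest in replicate 1. These steps depend on the length by which fragments were divided. The exons annotated for Psph cover 4329 bases, 2.498 times its longest coding transcript. Its level became 127 when rescaled to that transcript and 324 when rescaled to its coding length. Lengths were replaced for the members only, so these values are not TPM and compare only with members rescaled alike. Psph also shares 452 bases, 10.4% of its exons, with Cct6a on the opposite strand, a chaperonin subunit gene at 702 TPM on average. The counting was strand-specific, and the part of that overlap in the Psph level was not tested.

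Among the serine hydroxymethyltransferases the mitochondrial isozyme prevailed, and Shmt2 was the highest of all 9 members. Shmt2 (ENSMUSG00000025403.5, chr10:127517123-127522444, minus strand) stood at 715, 790, 811 and 760 TPM in replicates 1 to 4, a mean of 769 ± 41.6 TPM, which was rank 162 of all annotated genes and above 98.7% of tested genes. Shmt1 (ENSMUSG00000020534.14, chr11:60788104-60811718, minus strand) stood at 205, 211, 202 and 209 TPM, a mean of 207 ± 3.95 TPM (rank 950). The ranges do not overlap, and the ratio of Shmt2 to Shmt1 was 3.50 to 4.01. Of the summed TPM of both, Shmt2 held 77.8%, 78.9%, 80.03% and 78.5%, a mean of 78.8% ± 0.956 (SD, n = 4). Shmt1 overlaps 184 bases of Smcr8, 4.74% of its exons, on the opposite strand (42.0 TPM), and Shmt2 overlaps 32 bases of Ndufa4l2, which had no fragment.

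In the Mthfd family, the cytosolic enzyme and 2 mitochondrial ones were transcribed at comparable levels, and the fourth gene was close to the bottom of the tested range. Mthfd1 (ENSMUSG00000021048.7, chr12:76255298-76319803, plus strand), the cytosolic enzyme that joins the dehydrogenase, cyclohydrolase and formyltetrahydrofolate synthetase steps in 1 protein, stood at 362, 372, 354 and 357 TPM, a mean of 362 ± 8.05 TPM (rank 472). Mthfd1l (ENSMUSG00000040675.17, chr10:3973118-4167081, plus strand), the mitochondrial synthetase that releases formate, stood at 239, 249, 245 and 248 TPM, a mean of 245 ± 4.46 TPM (rank 744). Mthfd1 exceeded Mthfd1l in each library, by 1.44 to 1.52 times. Mthfd1l held 39.7%, 40.1%, 40.9% and 40.9% of the TPM of both, a mean of 40.4% ± 0.601. Mthfd1 overlaps 37 bases of Gm47525 on the opposite strand, which had 6 fragments in replicate 4 and none elsewhere.

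Mthfd2 (ENSMUSG00000005667.8, chr6:83305691-83325908, minus strand), the mitochondrial dehydrogenase and cyclohydrolase known to be raised in dividing cells, was the steadiest member. It stood at 269, 276, 268 and 270 TPM, a mean of 271 ± 3.66 TPM (rank 654), and replicate 2 was slightly above the other 3. Mthfd2l (ENSMUSG00000029376.8, chr5:90931117-91021368, plus strand), which catalyses the same mitochondrial steps, stood at 1.04, 1.18, 0.927 and 1.03 TPM, a mean of 1.04 ± 0.103 TPM (rank 12350). It rested on 123, 619, 87 and 96 fragments, well above the 3 fragments taken as the detection floor, and 8.41% of tested genes lay below it. Mthfd2 exceeded Mthfd2l by 235 to 290 times and held 99.6% of the TPM of both in each library. The exons of Mthfd2l in the annotation cover 3.08 times its longest coding transcript. Rescaled to that transcript, its mean was 3.21, no longer in TPM. With both genes rescaled in this way, the Mthfd2 share was 99.3%.

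**Figure D2:**
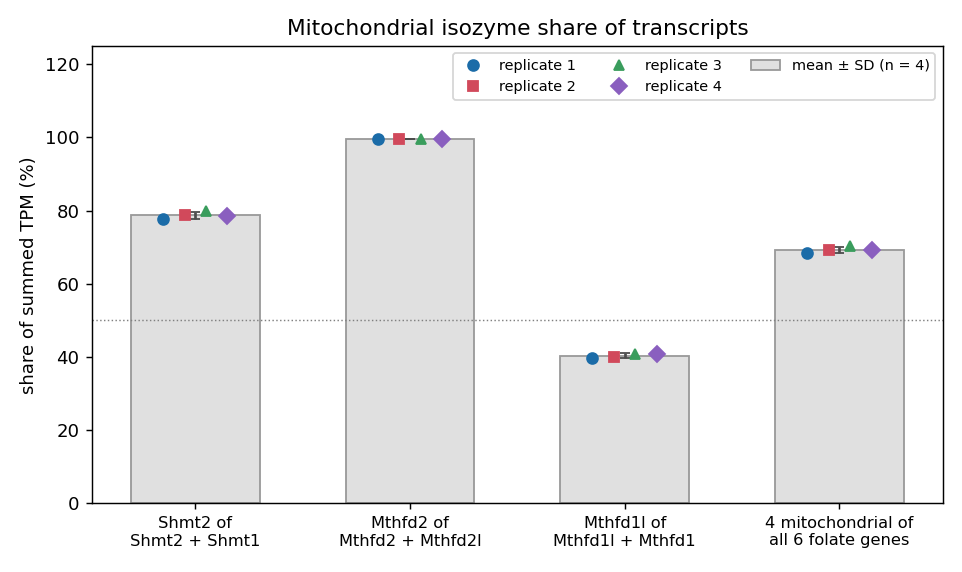
Share of the summed TPM held by the gene or genes named first under each bar, in percent. Bars show the mean ± SD of 4 libraries, with 1 symbol per replicate and a dotted line at equal parts. Mthfd2 and Mthfd2l are both mitochondrial, so their bar does not compare compartments. Shmt2 holds 77.8% to 80.03% of its pair and Mthfd2 99.6%, Mthfd1l holds 39.7% to 40.9% of the synthetase pair, and the 4 mitochondrial genes hold 68.3% to 70.4% of all 6.

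Over the 6 folate genes together, the 4 that encode mitochondrial enzymes (Shmt2, Mthfd1l, Mthfd2 and Mthfd2l) held 68.3%, 69.3%, 70.4% and 69.3% of the TPM, a mean of 69.3% ± 0.856. The pairs that compare compartments differed in direction. Shmt2 was above its cytosolic partner Shmt1, but in the synthetase pair the cytosolic gene was above the mitochondrial one. Mthfd1 carries in 1 transcript the activities that mitochondria divide between Mthfd1l and Mthfd2 or Mthfd2l. Mthfd2 and Mthfd2l are both mitochondrial, so their share does not compare compartments. When coding lengths replaced exon lengths the shares were 73.8% for Shmt2, 99.2% for Mthfd2, 39.3% for Mthfd1l and 71.6% for all mitochondrial genes. Each stayed on the same side of equal parts. The pooled share sums more mitochondrial than cytosolic genes, so equal levels of all 6 would also put it above equal parts. Shmt2 added most to it, at a mean of 769 TPM, against 271 for Mthfd2, 245 for Mthfd1l and 1.04 for Mthfd2l. The cytosolic Mthfd1 and Shmt1 stood at 362 and 207 TPM.

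By mean TPM the members stood in the order Shmt2, Phgdh, Mthfd1, Psat1, Mthfd2, Mthfd1l, Shmt1, Psph and Mthfd2l. All 36 pairs of members differed in 1 direction in 4 of 4 libraries. Flipping signs over the libraries in an exact permutation test, two-sided, gave p = 0.125 for each pair, before and after adjustment over the 36 pairs, which is the smallest p that 4 libraries allow. Each of the 8 neighbouring pairs in that order differed by more than 2 SD of its own difference. The order came from these same libraries, so this describes the steps and is no test of the order. The narrowest step was Mthfd1 minus Psat1, at 0.04, 0.13, 0.06 and 0.10 on the log2(TPM + 1) scale (mean 0.08 ± 0.04). Mthfd2 minus Mthfd1l came next at 0.14 ± 0.02, then Mthfd1l minus Shmt1 at 0.25 ± 0.02. The widest steps were Psph minus Mthfd2l at 4.66 ± 0.10 and Shmt1 minus Psph at 2.01 ± 0.11.

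The ends of the order were the same with every length tried, and its middle was not. By transcript length 35 of the 36 pairs had 1 direction in every library: Phgdh minus Psat1 averaged 0.17 and was not positive in all 4. Values by transcript or coding length are TPM rescaled for the members only, so they compare members with each other and not with other genes. Shmt2 stayed highest at 769, 1044 and 1578 by all annotated exons, longest coding transcript and coding length. Psph and Mthfd2l stayed at the bottom. Psat1 has a coding sequence of 1113 bases, short against its 4254 exon bases, and stood at 341, 554 and 1303 by the same lengths. It so passed Mthfd1 (362, 495 and 572) by transcript length and also Phgdh (475, 624 and 737) by coding length. Mthfd2 (271, 453 and 897) passed both Phgdh and Mthfd1 by coding length. By that length Shmt1 (207, 281 and 558) also passed Mthfd1l (245, 295 and 370). Fragments from untranslated exons remain in the counts, so division by coding length overstates genes with long untranslated regions.

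**Figure D3:**
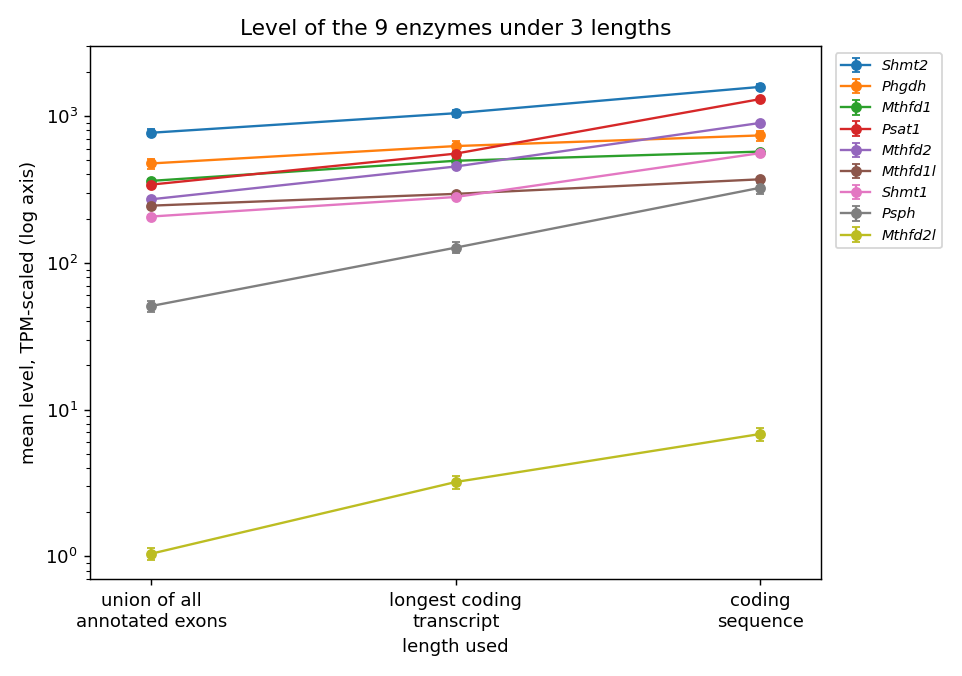
Mean level of each enzyme gene (log axis, TPM-scaled, n = 4, bars ± SD) when its fragments are divided by the union of its annotated exons, by its longest coding transcript or by its coding length. Lines cross among Phgdh, Mthfd1, Psat1, Mthfd2, Mthfd1l and Shmt1, while Shmt2 (769, 1044 and 1578) and Mthfd2l (1.04, 3.21 and 6.82) keep their places.

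The enzymes differed little between replicates. The coefficient of variation (SD over mean) of the members' TPM ran from 1.35% for Mthfd2 to 9.84% for Mthfd2l, with a median of 2.29%, against 7.53% for tested genes. Low genes carry more counting error. Among the 8376 tested genes at a mean of 10 TPM or more the median was 5.77%, and 6 of the 8 members at that level lay below it. The exceptions were Phgdh (7.86%) and Psph (8.61%), the first and last enzymes of serine synthesis. For Mthfd2l counting error alone amounts to 10.7% in the library with its fewest fragments.

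The test for spread between replicates called none of the members. So few of all tested genes were called that this count does not set the members apart. EdgeR's goodness-of-fit test sets each gene's residual deviance, its misfit to 1 common level, against the spread usual for genes of its abundance. By edgeR, 0 of 9 members varied at adjusted p under 0.05, against 46 of 12712 tested genes (0.362%), and 0 of 9 at unadjusted p under 0.05, against 704 genes (5.54%). Each member's adjusted p by edgeR was 1.00. The median deviance was 0.358 for members and 1.98 for tested genes, and 7 of 9 members lay below the median of tested genes. The 2 above it were Psph at 5.97 and Phgdh at 3.34. No member was called under any alternative setting tried. The highest library exceeded the lowest by 1.03 times (Mthfd2) to 1.27 times (Mthfd2l), and a member that misses the threshold is not shown to be constant. With trends in GC content and length removed, a setting added after the data were seen, Psph had an unadjusted edgeR p of 0.0164 and an adjusted p of 0.590.

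**Figure D4:**
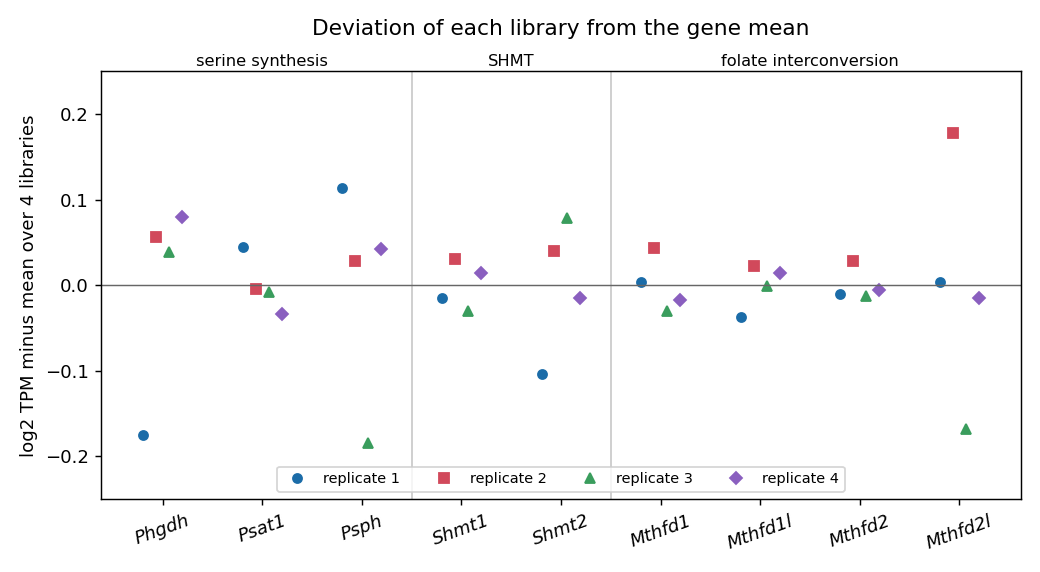
Deviation of each library from the gene's mean, as log2 TPM minus the mean log2 TPM of 4 libraries, with 1 symbol per replicate. Phgdh in replicate 1 (-0.18) and Psph in replicate 3 (-0.18) lie lowest, Mthfd2l in replicate 2 (0.18) lies highest, and all values of Psat1, Shmt1, Mthfd1, Mthfd1l and Mthfd2 are within 0.05 of the line.

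Members did not move as a block from replicate to replicate. In replicate 1 Phgdh lay 0.18 and Shmt2 0.10 below the mean on the log2 scale while Psph lay 0.11 above it, and in replicate 3 Psph and Mthfd2l lay lowest while Shmt2 lay highest. Replicate 2, the deepest library, was above the mean for 8 members, but 8 of its 9 deviations were within 0.1. Replicate 4 had all 9 within 0.1. Over all genes, deviations went with base composition to a different degree in each library: over 12261 genes, the deviation of a library correlated with transcript GC content at Spearman's rho of -0.36 in replicate 1 and 0.10, 0.19 and 0.20 in replicates 2 to 4, given as a description across genes, which are not independent. Phgdh (57.2% GC) and Shmt2 (57.4%) have the highest GC content of the members and lay lowest in replicate 1. Of the 4 members above their means there, Psph had 53.7% GC, Mthfd1 52.6%, Psat1 48.4% and Mthfd2l, the lowest of all members, 43.7%. Also below their means in replicate 1 were Mthfd1l (51.7% GC, -0.04), Shmt1 (49.2%, -0.01) and Mthfd2 (49.6%, -0.01). Mthfd2l was highest in replicate 2, where rho over all genes was 0.10. Whether the members followed the trend over all genes was not tested.

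The values without those trends were as follows. Phgdh stood at 320, 349, 351 and 359 fragments (CPM, counts scaled to a fixed library total) after removal, against 306, 357, 352 and 367 before, so replicate 1 was still the lowest, and the range was narrower. Shmt2 stood at 686, 697, 727 and 683 after removal, against 653, 714, 734 and 697 before, and replicate 1 was then no longer apart. Psph stood at 72.0, 64.1, 55.6 and 65.9 after removal, against 69.7, 65.1, 56.2 and 66.5 before, with replicate 3 still the lowest.

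Around the enzymes, 50 further genes in 11 lists trace where the carbon comes from and goes. Of these 50, 30 reached 10 TPM in every library, against 16% of all annotated genes and 63.8% of tested genes. Below 1 TPM in every library were 13, and 9 had no fragment. These counts, and those by list below, are a description and do not set the lists apart from tested genes. The median mean level of the 50 was 26.8 TPM. By edgeR 0 of the 39 that could be tested varied at adjusted p under 0.05, and 1 did at an unadjusted p under 0.05, Mthfs (5,10-methenyltetrahydrofolate synthetase) at 0.347, 1.16, 0.871 and 0.737 TPM and edgeR adjusted p = 0.509. With a common dispersion in place of the trend, edgeR called Mthfs (adjusted p = 1.16e-05) and the folate transporter gene Slc46a1 (adjusted p = 0.0321). That setting called 862 of all 12712 tested genes, so these calls do not set the related genes apart. Both genes were low, at means of 0.779 TPM (Mthfs) and 2.84 TPM (Slc46a1). Each value that follows is a mean in TPM ± SD (n = 4).

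**Figure D5:**
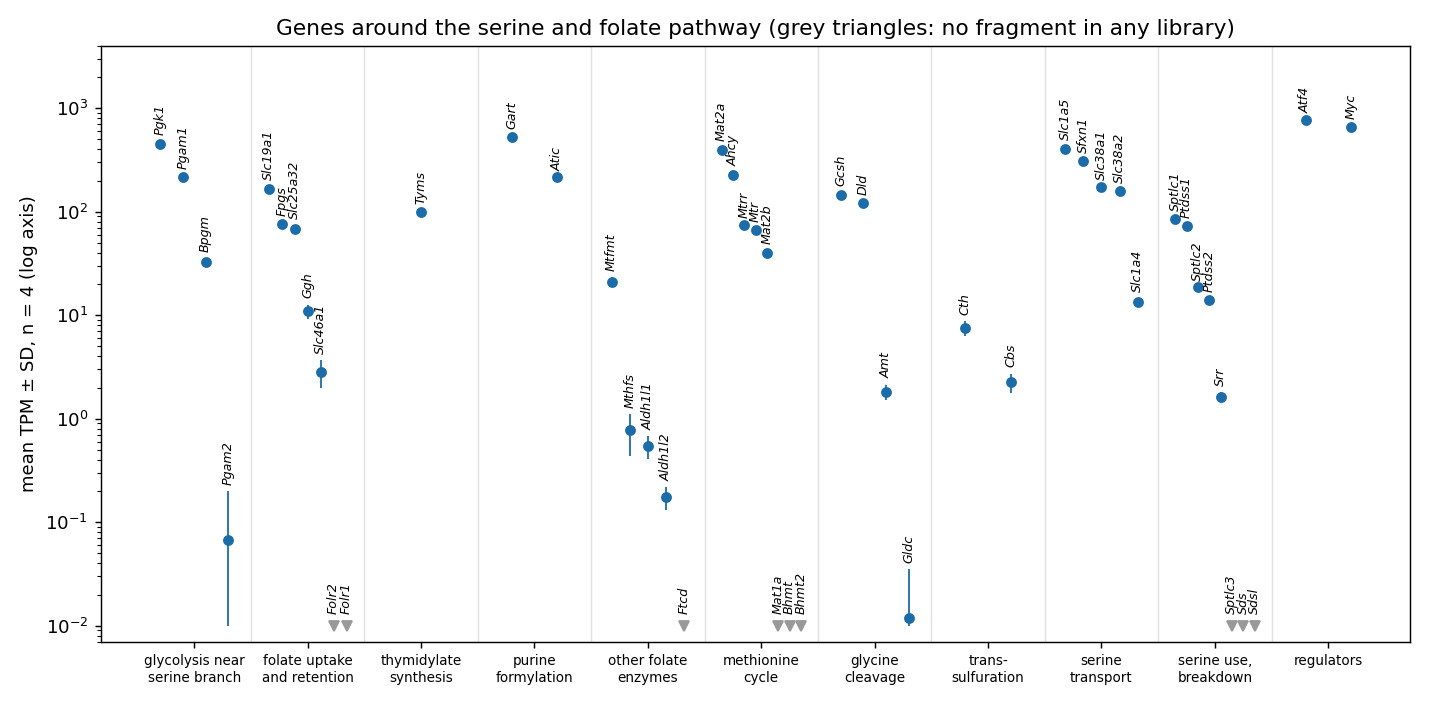
Mean TPM ± SD (n = 4, log axis) of genes around the pathway, by list, with grey triangles at the lower edge for genes without a fragment in any library and error bars cut at that edge. Atf4 (767), Myc (665) and Gart (532) lie highest, and Ftcd, Mat1a, Bhmt, Bhmt2, Folr1, Folr2, Sptlc3, Sds and Sdsl have no fragment.

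Upstream, 3 of 4 genes of the glycolytic steps around 3-phosphoglycerate were at 10 TPM or more. Pgk1, phosphoglycerate kinase, which makes that intermediate, stood at 453 ± 23.0 TPM, near Phgdh at 475. Pgam1, the mutase that carries it on towards pyruvate, stood at 216 ± 10.5, and Bpgm at 32.6 ± 2.56. Pgam2, the muscle mutase, had 4 fragments, all in replicate 1. All 5 serine transport genes were at 10 TPM or more, led by the neutral amino acid transporter Slc1a5 (402 ± 27.8), the mitochondrial serine carrier Sfxn1 (310.0 ± 7.74) and Slc38a1 (175 ± 2.62).

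For folate itself, the reduced folate carrier Slc19a1 stood at 167 ± 8.63 TPM, folylpolyglutamate synthase Fpgs, which retains folate in the cell, at 76.0 ± 3.16, and the mitochondrial folate carrier Slc25a32 at 68.6 ± 4.95. The folate receptors Folr1 and Folr2 had no fragment, where 3 fragments in the shallowest library correspond to 0.0931 and 0.138 TPM. Enzymes that spend folate carbon were above 10 TPM in every library: thymidylate synthase Tyms at 101 ± 2.82, and the purine formylation enzymes Gart at 532 ± 14.6 and Atic at 215 ± 1.22. Mtfmt, the mitochondrial methionyl-tRNA formyltransferase, stood at 21.0 ± 2.17. The formyltetrahydrofolate dehydrogenases Aldh1l1 (0.542 ± 0.137) and Aldh1l2 (0.175 ± 0.0426) stayed below 1 TPM in every library, and Ftcd, a histidine breakdown enzyme, had no fragment.

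The methionine cycle showed 5 of 8 genes at 10 TPM or more, led by Mat2a (398 ± 17.8), Ahcy (226 ± 13.7) and Mtrr (74.2 ± 2.17), which make S-adenosylmethionine, clear S-adenosylhomocysteine and keep methionine synthase active. Mat1a, Bhmt and Bhmt2, known from liver, had no fragment. In the glycine cleavage system, which would feed glycine carbon into mitochondrial folate, the shared subunits Gcsh (146 ± 6.99) and Dld (120.2 ± 5.01) were abundant, while Amt stood at 1.82 ± 0.314 and the decarboxylase Gldc had 14 fragments in replicate 2 and none in the others. Transsulfuration, which turns serine and homocysteine into cysteine, was low, with Cth at 7.55 ± 1.26 and Cbs at 2.25 ± 0.473.

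Of 8 genes that use or break down serine, 4 were at 10 TPM or more. Sptlc1 (85.8 ± 2.15) and Sptlc2 (18.6 ± 0.135) start sphingolipid synthesis, and Ptdss1 (73.4 ± 2.81) makes phosphatidylserine. Sptlc3 and the serine dehydratase genes Sds and Sdsl had no fragment. Atf4 and Myc, transcription factors known to drive serine synthesis and one-carbon genes, stood at 767 ± 15.1 and 665 ± 20.8 TPM, next to Shmt2 at 769 ± 41.6 as the most abundant member.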

How the data were processed

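Primary T-cell RNA was measured in 4 libraries of 1 group, each deposited as 1 table of 50600 genes. The authors deposited counts of fragments. Per the file headers, these were made by featureCounts 1.4.6-p4 over GENCODE vM13 exons, reverse-stranded (strand setting 2), for pairs aligned at both ends. Options that keep multi-mapped fragments, or those over several genes, were off. Alignments are named as STAR output per the file headers. The labels name build mm10. Every pair of libraries differed beyond sampling noise (chi-square over degrees of freedom 9.67 to 31.0, 6 pairs). No label ties a library to its own animal. Xist and Ddx3y differed so far between replicates 1 and 2 and replicates 3 and 4 that the 4 cannot all come from 1 animal, and the number of animals is not given. The edgeR p-values therefore describe how these samples spread, which may be technical in part. The sign-flip p-values for pairs of members treat the 4 libraries as independent, which is not known.

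TPM was computed here from those counts and the tables' exon lengths. Symbols came from GENCODE vM21 (50376 of 50600 identifiers matched). At the depths given, 3 fragments on 1 kb of exons amount to 0.0379 to 0.214 TPM. Floors cover counting error only. Variation was tested with edgeR 4.0.16 in R 4.3.3 with limma 3.58.1, after filterByExpr at a minimum count of 10, with TMM, trended dispersion, intercept-only fit, deviance against chi-square with 3 degrees of freedom, Benjamini-Hochberg adjustment over 12712 genes at 0.05. The fit was tested on simulated data. Pairs were compared on the log2(TPM + 1) scale with an exact sign-flip permutation test. Look-alike genes were found with BLAST 2.17.0 against GENCODE vM21 transcripts. DESeq2 1.42.0 supplied alternative size factors, and the other steps ran in Python 3.11.15 (scipy 1.17.1, pandas 2.3.3, matplotlib 3.10.9, numpy 2.4.6). Transcript and coding lengths were those of each member's longest coding transcript in GENCODE vM21, replaced for the members only. Promoters are RefSeq's (GRCm38.p6).

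Genes named are the 9 members, genes whose exons overlap theirs, and in each related list the 3 of highest mean TPM, those below 1 TPM in every library and those past the variation threshold. Some genes of these lists are counted but not reported here by name. Mthfs, Slc46a1, look-alike genes, Xist, Ddx3y and single markers were named after their values were seen. Members and lists were chosen with earlier results of these data known. Listings of files were not used here.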

Additional observations from a re-analysis of the deposited data

Results flagged for a closer look

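In 57 sets of 4 values (levels of members and of related genes at 1 TPM or more, isozyme shares and differences between neighbouring members), 5 had 1 library set apart from the other 3 by most of the range, which chance gives in about 1 of 20 sets. Mthfd2 stood at 276 TPM in replicate 2, against 268 to 270 TPM in the others. Fpgs stood at 71.3 TPM in replicate 1, against 77.3 to 77.8 TPM. Ahcy stood at 205 TPM in replicate 1, against 230 to 234 TPM. Slc1a5 stood at 361 TPM in replicate 1, against 410 to 420 TPM. Sfxn1 stood at 322 TPM in replicate 3, against 305 to 308 TPM. Phgdh in replicate 1 fell just short of the limit.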

How the results depend on the processing

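The order of 36 pairs was the same in every library under each alternative pseudocount (0.1 and 0.5), with TMM scaling and without any 1 replicate. It was also the same in the 28 pairs whose members both reached 1 TPM. None of these settings can change a direction that all 4 libraries share, so they do not test the order. Length changed it: by coding length the log2 difference became -0.82 for Phgdh minus Psat1, -0.29 for Phgdh minus Mthfd2, -1.19 for Mthfd1 minus Psat1, -0.65 for Mthfd1 minus Mthfd2 and -0.59 for Mthfd1l minus Shmt1, and by transcript length -0.16 for Mthfd1 minus Psat1, with 35 pairs in 1 direction in every library. Both lengths were added after the data were seen. Coding length moved the shares within pairs to 73.8% (Shmt2), 99.2% (Mthfd2) and 39.3% (Mthfd1l), and the share of all mitochondrial folate genes to 71.6%. Transcript length gave 99.3% (Mthfd2) and 37.3% (Mthfd1l). Without 1 replicate the shares, in the same order, ran from 78.4% to 79.1%, stayed at 99.6%, and ran from 40.2% to 40.6% and from 69.0% to 69.7%. In place of TPM, FPKM with TMM or with DESeq2 size factors put 3 members rather than 7 at 100 or more, since that scale runs lower for every gene. Members at 1 TPM or more were 8 to 9 without 1 replicate (9 without replicate 3). Varying genes by edgeR numbered 862 with a common dispersion and 25 to 40 without 1 replicate (25 without replicate 2), against 46, and no member was among them. The common dispersion also called 2 of the 39 related genes (Mthfs and Slc46a1), against 0. The cause was not tested. A planned division by RefSeq coding length was not run. No paired analysis was possible because the labels give only 1 group.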
